A study of Mus musculus with 6 samples.

Results

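The Fc gamma receptor genes of mouse are the 4 receptor genes Fcgr1, Fcgr2b, Fcgr3 and Fcgr4, together with Fcer1g, which encodes the signalling chain that the activating receptors share. They were taken by gene symbol, so that 5 of the 14574 genes listed in any library are described here, and all 5 passed the filter that left 10172 genes for testing. The libraries are RNA sequencing of bone marrow-derived macrophages, cells grown from flushed femur marrow, from Cd28 knockout (Cd28 KO) mice and from C57BL/6J (WT) mice, with 3 libraries per genotype. The mice were 6 to 10 weeks old, and both genotypes were cultured alike for 7 days in DMEM with 10% FCS, 2-ME and human M-CSF at 25 ng/ml, renewed every 2 days, and received no other treatment. The labels name neither the deleted part of Cd28 nor the sex of the mice. No label says whether replicate numbers stand for separate animals, so p-values measure only the spread between these samples.

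Fc gamma receptors bind the constant part of IgG antibodies and let macrophages engulf antibody-coated particles and respond to immune complexes. In the mouse, Fcgr1 (high affinity), Fcgr3 (low affinity) and Fcgr4 (intermediate affinity) are activating receptors that signal through the Fcer1g chain, whose tyrosine motif (ITAM) is phosphorylated by Src family kinases and then binds the kinase Syk. Fcgr2b is the inhibitory receptor, and its own tyrosine motif (ITIM) recruits the lipid phosphatase encoded by Inpp5d. The balance of activating and inhibitory receptors on a macrophage is known to set its threshold for responding to IgG.

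The 2 coding stretches that make these receptors activating or inhibitory are shown first, as bases of the principal GENCODE M21 transcripts (build GRCm38), with the tyrosine codons in capitals. The Fcer1g motif is coded on the minus strand of chromosome 1, in 2 exons at chr1:171230067-171230072 and chr1:171229889-171229927, and its tyrosines are residues 65 and 76. The Fcgr2b motif lies at chr1:170961059-170961100 on the minus strand, with its tyrosine at residue 319 of 339. A search of all 5 coded proteins found the ITAM pattern in Fcer1g alone and the ITIM pattern (isoleucine or valine ahead of the tyrosine, leucine after it) in Fcgr2b alone.
Fcer1g ITAM: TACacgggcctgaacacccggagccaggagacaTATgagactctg
Fcgr2b ITIM: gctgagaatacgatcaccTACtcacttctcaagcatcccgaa

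Fcgr2b and Fcgr3 resemble each other in sequence, which bears on how reads are divided between them. Their whole coding sequences, not the part outside the cell alone, were identical at 80.6% of 788 aligned bases. The share was 60.5% for Fcgr2b with Fcgr4 and 62.7% for Fcgr3 with Fcgr4. The most similar 120 bases within 1 exon of each are printed here because 119 of them are the same, with the base that differs from Fcgr2b in capitals. They lie at chr1:170967984-170968103 in Fcgr2b and chr1:171057695-171057814 in Fcgr3, both on the minus strand of GRCm38.
Fcgr2b: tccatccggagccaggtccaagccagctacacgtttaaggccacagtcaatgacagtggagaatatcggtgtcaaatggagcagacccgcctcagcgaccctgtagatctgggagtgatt
Fcgr3: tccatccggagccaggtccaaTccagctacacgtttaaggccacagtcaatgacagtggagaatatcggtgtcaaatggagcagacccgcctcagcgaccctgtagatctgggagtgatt
Of all 100-base windows of the Fcgr3 transcript 3.5% occurred unchanged in Fcgr2b, and of 50-base windows 12.8% did. For Fcgr2b windows in Fcgr3 the shares were 1.3% and 4.7%, and no other pair of the 5 transcripts shared a window of either length. RSEM, named in the submitters' processing notes, divides such reads by estimation, so the levels of Fcgr2b and Fcgr3 are less certain where they share reads, while Fcgr1, Fcgr4 and Fcer1g do not share such stretches with the other members.

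Upstream of the start sites, 3 short motifs were searched on both strands in the 250 bases before each RefSeq start (build GRCm38.p6): an interferon response element core (GAAA, any 2 bases, GAAA), a gamma-activated site (TTCNNNGAA) and a PU.1 core (GAGGAA). They were chosen after the sequences were seen, and none of their matches overlapped. Fcgr4 and Fcgr1 are printed because each held 2 of the 3, and Fcgr2b because it held none, as did Fcer1g; matches are in capitals. Fcgr4 is read from the plus strand at chr1:171018676-171018925, Fcgr1 from the minus strand at chr3:96293970-96294219 and Fcgr2b from the minus strand at chr1:170976072-170976321.
Fcgr4: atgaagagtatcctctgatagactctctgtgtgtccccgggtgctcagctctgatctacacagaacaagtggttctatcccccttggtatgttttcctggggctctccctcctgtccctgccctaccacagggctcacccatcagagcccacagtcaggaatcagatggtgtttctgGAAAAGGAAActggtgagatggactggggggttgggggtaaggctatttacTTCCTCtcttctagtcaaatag
Fcgr1: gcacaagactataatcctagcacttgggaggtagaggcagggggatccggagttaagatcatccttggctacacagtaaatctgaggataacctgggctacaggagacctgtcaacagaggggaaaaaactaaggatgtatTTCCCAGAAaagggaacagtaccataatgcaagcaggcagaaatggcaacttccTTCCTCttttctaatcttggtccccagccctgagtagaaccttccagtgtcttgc
Fcgr2b: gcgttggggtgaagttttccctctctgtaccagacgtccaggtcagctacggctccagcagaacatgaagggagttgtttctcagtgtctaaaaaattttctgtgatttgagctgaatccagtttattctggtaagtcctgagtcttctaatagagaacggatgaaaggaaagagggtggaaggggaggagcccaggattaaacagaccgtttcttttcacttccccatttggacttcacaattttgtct
The interferon response core was found in Fcgr4 alone among the 5 genes, 73 bases before the start, and in 3.0% of all 32817 windows. TTCNNNGAA was found in Fcgr1 alone, 109 bases before the start, and in 7.0% of all windows. GAGGAA was found in Fcgr1, Fcgr3 and Fcgr4, and in 23.3% of all windows. These are letter matches and show neither binding nor its absence.

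Values are FPKM (fragments scaled to transcript length and library total) as the authors deposited them, which lets levels of different genes be compared per length. Each library listed 12768 to 13327 genes, and their depth in reads is unknown. Cd28, the targeted gene, remained listed in every knockout library, at 25.7, 24.1 and 26.9 FPKM, below the 38.2, 30.1 and 51.1 of WT (exact two-sided permutation p = 0.1, the smallest that 3 against 3 can give). On principal component 1, which held 73.8% of the variance, replicate 3 of each genotype lay far from the remaining 4 libraries (34.8 and 36.1 against -18.2 to -17.4). The 8 macrophage markers summed to between 14738 and 16814 FPKM in Cd28 KO, against 14071 to 14828 for WT. Lyz2, which encodes lysozyme, made up most of each sum, with knockout libraries at 10518 to 12716 FPKM and WT libraries at 9652 to 10639. Positive log2 differences were found for 4 of these markers and negative ones for 4, and the list median was -0.02. Adgre1 (F4/80) stood at 262 to 333 FPKM, and Mertk, a receptor for apoptotic cells, was the lowest at 4.63 to 7.60. The B cell marker list, relevant because B cells also express Fcgr2b, summed to 0.69 to 1.20 FPKM over its 7 genes in Cd28 KO and 0.86 to 1.22 in WT, with Cd79b the highest. The 6 NK cell markers summed to 0.25 to 0.74 and 0.35 to 0.90 FPKM, with Ncr1 and Gzma at 0 in all libraries. The 8 mast cell and basophil markers summed to 2.22 to 3.52 and 3.33 to 5.85 FPKM, with Mcpt4, Cma1 and Tpsb2 at 0. Kit, the highest, stayed at or below 1.74 FPKM in the knockout libraries and at or above 2.80 in those of WT. Such a lower level without overlap was found for 2.87% of all tested genes. Kit (log2 -0.66) was not called by limma, whose adjusted p was 0.9995, or 0.18 once replicates were blocked. The part of B cells, NK cells, mast cells and basophils in the receptor levels was not tested. The 9 neutrophil markers summed to 3.89 to 8.88 and 2.43 to 7.08 FPKM. The 6 monocyte markers summed to 77.7 to 129 against 71.5 to 116 FPKM. Of the 4 that were tested 3 had a positive difference, as did 49.1% of all tested genes. Plac8 was the 1 of these 4 higher in Cd28 KO without overlap, as were 3.84% of all tested genes. It stood at 7.66 ± 1.61 against 3.59 ± 1.97 FPKM (log2 0.98, limma adjusted p = 0.9995, and 0.054 with the replicate block). Cx3cr1, the highest on average, stood at 41.7 ± 2.64 against 45.2 ± 2.07. The monocyte sums include Nr4a1, named after its values were seen. It stood at 53.5 and 40.2 FPKM in replicate 3 of Cd28 KO and WT, against 3.64 to 4.75 in the remaining libraries. The part of monocytes in the receptor levels was not tested. In bulk samples fewer cells of a type and less RNA per cell cannot be told apart.

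Fcer1g was the most abundant of the 5 genes, followed by Fcgr3, Fcgr1, Fcgr4 and Fcgr2b. Fcer1g ranked between 12 and 15 among all genes in each library, Fcgr3 between 177 and 249, and Fcgr1 between 636 and 827. The level of Fcer1g was 6.52 to 9.14 times that of Fcgr3, and that of Fcgr3 3.43 to 4.13 times that of Fcgr1. Fcgr1 stood at 2.03 to 3.06 times Fcgr4. For each of these neighbours the order held in all 6 libraries and the ranges did not overlap. Fcgr4 and Fcgr2b did not separate: Fcgr4 was the higher in 4 of 6 libraries, at 0.968 to 1.48 times Fcgr2b.

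Fcgr4 was the member whose groups did not overlap. It was measured at 48.2, 42.4 and 51.4 FPKM in Cd28 KO replicates 1 to 3 and at 40.5, 34.4 and 39.4 in WT. The lowest Cd28 KO library lay above the highest WT library, by a margin smaller than the spread within either group. The means were 47.4 ± 4.58 and 38.1 ± 3.27 FPKM (SD, n = 3 each), a ratio of 1.24. By replicate number the ratio was 1.19, 1.23 and 1.30, above 1 in any pairing because the groups did not overlap. Limma gave a log2 difference of 0.31 ± 0.12 (SE, on the log2(FPKM + 1) scale, 95% interval 0.03 to 0.59). Its p was 0.037 before and 0.9995 after Benjamini-Hochberg adjustment over all genes, so Fcgr4 did not pass. Blocking on the replicate number gave a limma p of 0.0079, and an adjusted p of 0.40. Of all tested genes 3.84% were likewise higher without overlap, and 2.49% had an unadjusted limma p below 0.05.

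Fcgr3, the most abundant of the receptors proper, stood at 483, 421 and 363 FPKM in Cd28 KO and 398, 361 and 384 in WT. Replicates 1 and 2 were higher in Cd28 KO and replicate 3 was lower, and the groups overlapped. The means were 422 ± 59.9 and 381 ± 18.4 FPKM (SD, n = 3 each), with a log2 difference of 0.14 ± 0.12 (SE, 95% interval -0.15 to 0.43, limma adjusted p = 0.9995). Fcgr1 stood at 123, 106 and 105 FPKM in Cd28 KO and 110, 105 and 93.0 in WT, again with overlap. Its means were 111 ± 10.3 and 103 ± 8.82 FPKM, and its log2 difference was 0.11 ± 0.11 (SE, 95% interval -0.15 to 0.38, limma adjusted p = 0.9995).

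Fcgr2b, the inhibitory receptor, stood at 32.7, 33.2 and 46.9 FPKM in Cd28 KO and 32.9, 34.7 and 40.7 in WT. In both genotypes the replicate 3 library was the highest, and the other 4 libraries lay within 32.7 to 34.7 FPKM. The means were 37.6 ± 8.06 and 36.1 ± 4.13 FPKM (SD, n = 3 each), with a log2 difference of 0.04 ± 0.17 (SE, 95% interval -0.35 to 0.44, limma adjusted p = 0.9995). Fcer1g stood at 3328, 2785 and 3317 FPKM in Cd28 KO and 3351, 3280 and 2505 in WT. The lowest library was replicate 2 in Cd28 KO and replicate 3 in WT, so the ratio ran from 0.849 to 1.32 over the replicate numbers. The means were 3143 ± 310.4 and 3045 ± 469 FPKM, with a log2 difference of 0.05 ± 0.15 (SE, 95% interval -0.29 to 0.40, limma adjusted p = 0.9995). The summed level of Fcgr2b and Fcgr3, in which each gene's reads are still scaled to its own length, averaged 460 ± 53.0 FPKM against 417 ± 18.5 in WT, and the groups overlapped.

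**Figure D1:**
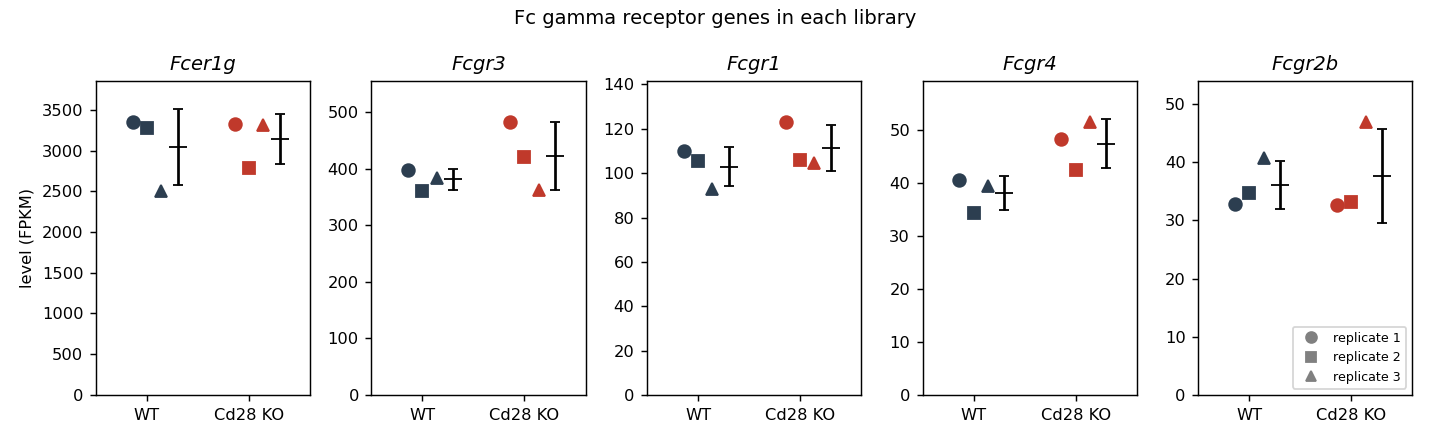
Level in FPKM (vertical axes, each starting at 0) of the 5 genes in each library, ordered by mean level, with WT in dark blue, Cd28 KO in red, marker shapes for the replicate numbers, and black bars for mean ± SD (n = 3). Only Fcgr4 has all 3 Cd28 KO points (42.4 to 51.4 FPKM) above all WT points (34.4 to 40.5), and Fcgr2b is highest in replicate 3 of both genotypes.

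None of the 5 genes was called by limma at an adjusted p below 0.05, with or without the replicate block, and 1 had an unadjusted p below 0.05 (Fcgr4), in either fit, where 2.49% and, with the block, 7.89% of all genes had one. Fcgr4 was also the 1 of 5 without overlap in either direction, against 6.71% of all genes. Over all tested genes limma called 2 higher (0.0197%) and 0 lower without a block, where 253 genes had an unadjusted p below 0.05, and 14 higher (0.138%) and 4 lower (0.0393%) with it. The differences of all 5 were above 0 in FPKM, as were those of 49.1% of all tested genes. Their median log2 was 0.11, against 0.00 over all tested genes. Rescaling each library to TPM gave -0.02 for Fcgr2b and -0.01 for Fcer1g, where the median of all tested genes was -0.06. After quantile normalization Fcer1g was at -0.03, where that median was -0.01. Without the replicate 3 libraries the log2 differences were 0.27 for Fcgr4, 0.25 for Fcgr3, 0.08 for Fcgr1, -0.03 for Fcgr2b and -0.12 for Fcer1g, again with none called. The intervals bound what these libraries could have missed: the upper limits lay at a log2 difference of 0.38 for Fcgr1, 0.43 for Fcgr3, 0.44 for Fcgr2b and 0.40 for Fcer1g, and at 0.59 for Fcgr4. With array weights, limma called Fcgr3 (log2 0.28, adjusted p = 0.039) and Fcgr4 (0.29, adjusted p = 0.044), in a fit that called 5.94% of all genes higher and 3.19% lower. The weights did not converge and gave 5.97 and 4.81 to the replicate 1 libraries, against 0.177 to 1.63 for the rest.

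**Figure D2:**
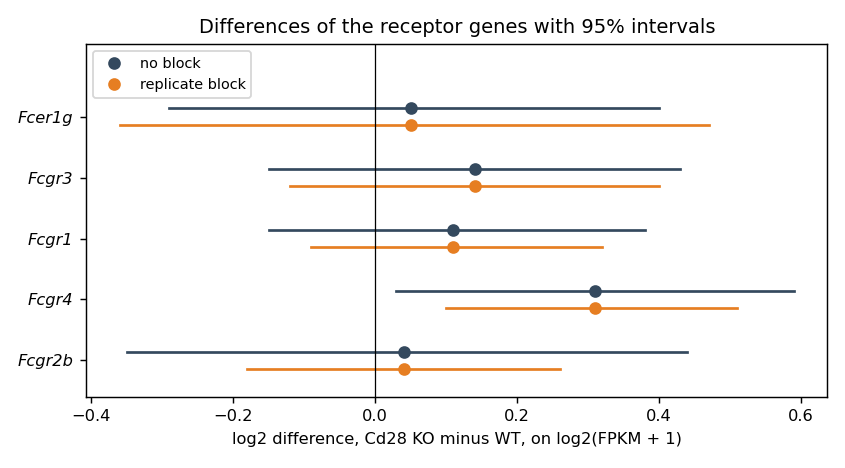
Log2 difference of Cd28 KO minus WT (horizontal axis, on log2(FPKM + 1)) of each gene, with points for the estimate and lines for its 95% interval, from limma without a block (dark blue) and with the replicate block (orange). The intervals of Fcgr4 (0.03 to 0.59 and 0.10 to 0.51) lie above 0 before any adjustment for the number of genes, and those of the other 4 genes include 0.

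The balance of activating against inhibitory receptors was taken as the summed FPKM of Fcgr1, Fcgr3 and Fcgr4 over that of Fcgr2b, without a test, since it is a score over the chosen genes. The ratio was 20.0, 17.1 and 11.1 in Cd28 KO replicates 1 to 3 and 16.7, 14.5 and 12.7 in WT. Replicates 1 and 2 were higher in Cd28 KO and replicate 3 was lower, and the replicate 3 library was the lowest of its genotype in both. Its mean was 16.1 ± 4.57 (SD, n = 3) against 14.6 ± 2.01 in WT (SD, n = 3), a difference smaller than the spread within either group. On the log2 scale the difference was 0.10. It was 0.25 in replicates 1 and 2 alone. Leaving out replicate 1 of Cd28 KO gave -0.08, replicate 3 of Cd28 KO 0.35, and replicate 3 of WT 0.01.

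The ratios of single receptors to Fcgr2b were lowest in replicate 3 of both genotypes. The ratio of Fcgr3 to Fcgr2b was 14.8, 12.7 and 7.74 in Cd28 KO and 12.1, 10.4 and 9.43 in WT. The ratio of Fcgr1 to Fcgr2b was 3.77, 3.19 and 2.23 against 3.35, 3.04 and 2.28. Both ratios were higher in Cd28 KO at replicates 1 and 2 and lower at replicate 3. The ratio of Fcgr4 to Fcgr2b was 1.48, 1.28 and 1.10 in Cd28 KO and 1.23, 0.991 and 0.968 in WT, higher in Cd28 KO at all 3 replicate numbers although the groups overlapped. Fcgr3 made up 69.9% to 74.4% of the activating sum over the 6 libraries, Fcgr1 18.0% to 21.0% and Fcgr4 6.86% to 9.91%. Fcer1g, the signalling chain, stood at 4.85 to 6.55 times the activating sum.

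**Figure D3:**
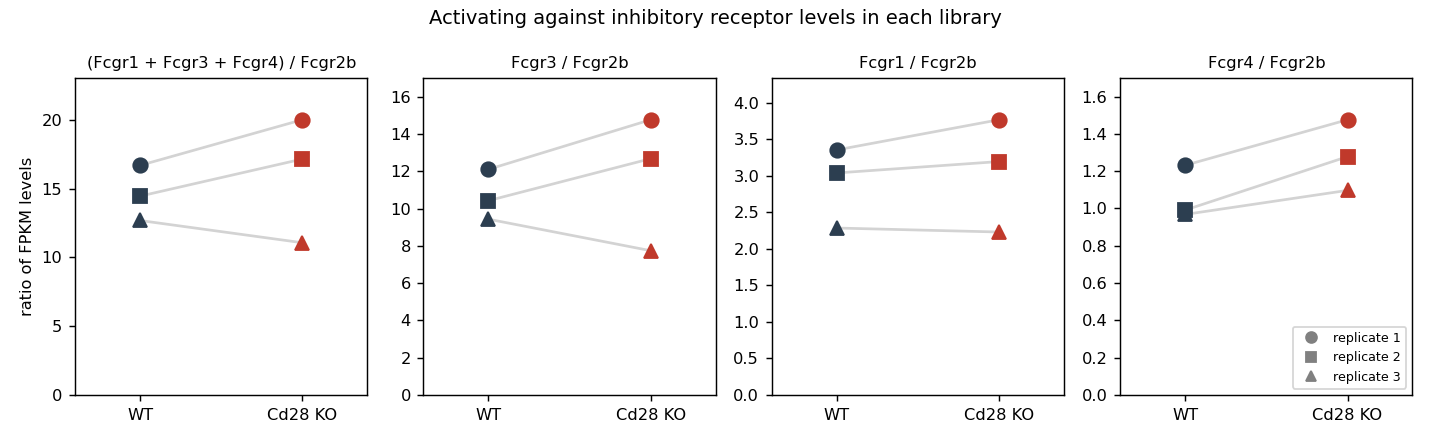
Ratio of FPKM levels (vertical axes, each starting at 0) of the activating sum and of each activating receptor to Fcgr2b, with WT in dark blue and Cd28 KO in red, marker shapes for the replicate numbers and grey lines joining equal numbers. The activating sum over Fcgr2b falls from 20.0 and 16.7 in replicate 1 to 11.1 and 12.7 in replicate 3, and only for Fcgr4 do all 3 lines go up.

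The rest of the pathway was read from 7 lists, and limma called 0 of their 126 tested genes, without a block and with it. Among other Fc-binding and Fc receptor-like genes, 4 of 14 were tested. Fcrls, an Fc receptor-like gene of myeloid cells, was the 1 without overlap, against 6.71% of all tested genes. It stood at 170, 188 and 166 FPKM in Cd28 KO against 157, 115 and 146 in WT (log2 0.33 ± 0.13 SE, limma adjusted p = 0.9995). Fcgrt, the neonatal Fc receptor that recycles IgG, stood at 31.7 to 36.3 against 31.4 to 33.4 FPKM. Of 16 other ITAM adaptors and Fcer1g partners 9 were tested, none was free of overlap, and Tyrobp, the other main ITAM adaptor of macrophages, had the highest level at 2025 ± 281 against 1827 ± 145 FPKM (SD, n = 3 each). The median log2 difference was 0.18 over the 4 Fc-binding genes and 0.14 over these 9.

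Proximal ITAM signalling had a median log2 difference of -0.06 over 33 tested genes, 24 of them negative, where 49.1% of all tested genes were positive. Grb2, an adaptor of Ras signalling, was its 1 gene without overlap, against 6.71% of all tested genes. It stood at 149, 141 and 149 FPKM in Cd28 KO against 152, 154 and 153 in WT. Syk, the kinase that binds the ITAM, stood at 63.1 ± 6.19 against 67.7 ± 12.3 FPKM. Lat2, an adaptor of the same pathway, was the most abundant at 215 ± 26.0 against 219 ± 23.6 FPKM. The 17 tested genes of ITIM signalling and other brakes had a median of -0.03. Dok3, an inhibitory adaptor, stood at 61.1, 63.6 and 59.8 FPKM in Cd28 KO against 54.2, 51.9 and 46.4 in WT (log2 0.27 ± 0.10 SE, limma adjusted p = 0.9995). Cblb, a ubiquitin ligase that restrains tyrosine kinase signalling, went the other way, at 14.3, 15.3 and 11.1 against 18.6, 18.3 and 16.0 FPKM (log2 -0.36 ± 0.15 SE, limma adjusted p = 0.9995). Neither pair of groups overlapped, as in 6.71% of all tested genes. Inpp5d, whose phosphatase the Fcgr2b motif recruits, stood at 62.6 ± 8.97 against 67.1 ± 6.92 FPKM, and Ptpn6, a tyrosine phosphatase, was the most abundant at 202 ± 34.8 against 186 ± 30.8.

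The 40 genes of the phagocytic cup and actin had a median log2 difference of -0.01. Arpc3, a subunit of the Arp2/3 complex that nucleates branched actin, stood at 764, 695 and 788 FPKM in Cd28 KO against 547, 581 and 667 in WT (log2 0.33 ± 0.11 SE, limma adjusted p = 0.9995). Pak1, a kinase downstream of Rac and Cdc42, stood at 27.1, 28.5 and 28.2 against 31.7, 32.0 and 30.2 FPKM (log2 -0.16 ± 0.10 SE, limma adjusted p = 0.9995). These were the 2 genes of the list without overlap, against 6.71% of all tested genes. The most abundant gene of the list was Cfl1 (cofilin, which severs actin filaments) at 1560 ± 188 against 1499 ± 42.5 FPKM. The 5 NADPH oxidase subunits had a median of -0.04, with Cyba at 924 ± 119 against 882 ± 153 FPKM. The 18 regulators of receptor expression had a median of -0.03 and none was free of overlap. Among them Spi1, which encodes PU.1, stood at 388 ± 57.6 against 367 ± 3.03 FPKM. Over the 7 lists 3 genes were higher and 3 lower without overlap, against 3.84% and 2.87% of all tested genes. An unadjusted limma p below 0.05 was found for 4 of their genes, against 2.49% of all tested genes.

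**Figure D4:**
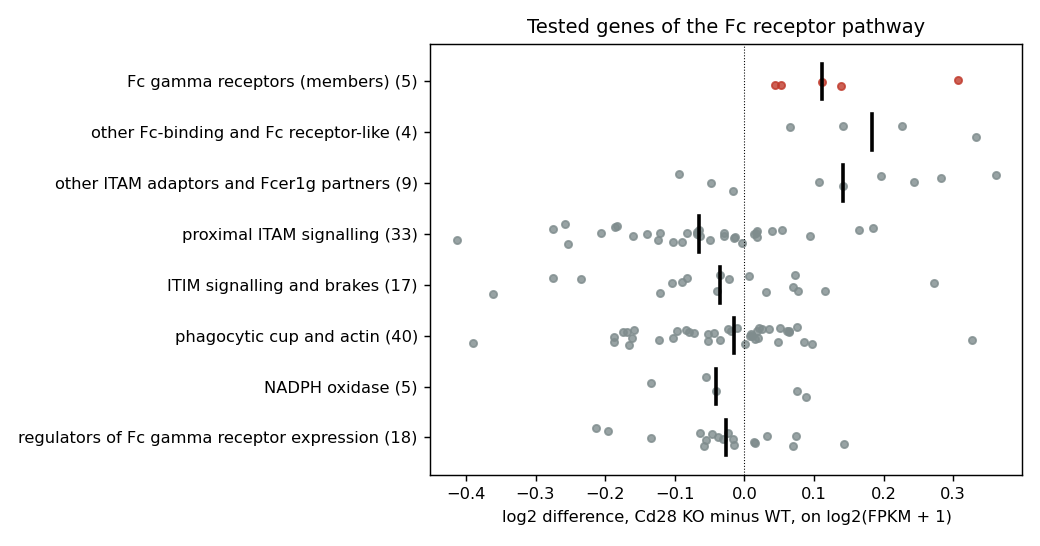
Log2 difference of Cd28 KO minus WT (horizontal axis, on log2(FPKM + 1)) of each tested gene in the receptor list (red) and the 7 pathway lists (grey), with the number tested in parentheses and a black bar at the median; vertical jitter carries no value. The medians run from -0.06 for proximal ITAM signalling to 0.18 for other Fc-binding genes, and no single gene reaches a difference of 0.5 in either direction.

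Of the 5 genes 4 lie together on chromosome 1 (Fcgr2b, Entrez 14130, 170960558 to 170976071; Fcgr4, Entrez 246256, 171018926 to 171029761; Fcgr3, Entrez 14131, 171051169 to 171065915; Fcer1g, Entrez 14127, 171229572 to 171234349, GRCm38). Cd28 lies on the same chromosome at 60746388 to 60773359, while Fcgr1 (Entrez 14129) is on chromosome 3 at 96282909 to 96293969. Within 1000000 bases of the chromosome 1 genes 35 other genes were tested, and limma called 0 of them without a block and with it. Their median log2 difference was -0.01, with 14 positive and 21 negative, where 49.1% of all tested genes were positive. Dusp12, a tested neighbour of Fcgr2b, had a log2 difference of 0.09 ± 0.22 (SE), and 1 of the 35 had groups without overlap, against 6.71% of all tested genes. It was Sh2d1b1, named after its values were seen, at 16.0 ± 1.25 against 12.4 ± 1.33 FPKM. Around Fcgr1 limma called 0 of 41 tested genes, the median was 0.01, and the nearest were H2ac18 (log2 0.48 ± 0.28 SE) and Txnip (0.07 ± 0.65). Without overlap 1 of the 41 was higher (Polr3c), against 3.84% of all tested genes. Lower without overlap, against 2.87%, were 4 (Ecm1, Anp32e, Sf3b4 and H3c15, a histone gene with near-identical copies whose level is uncertain). All were named after their values were seen.

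**Figure D5:**
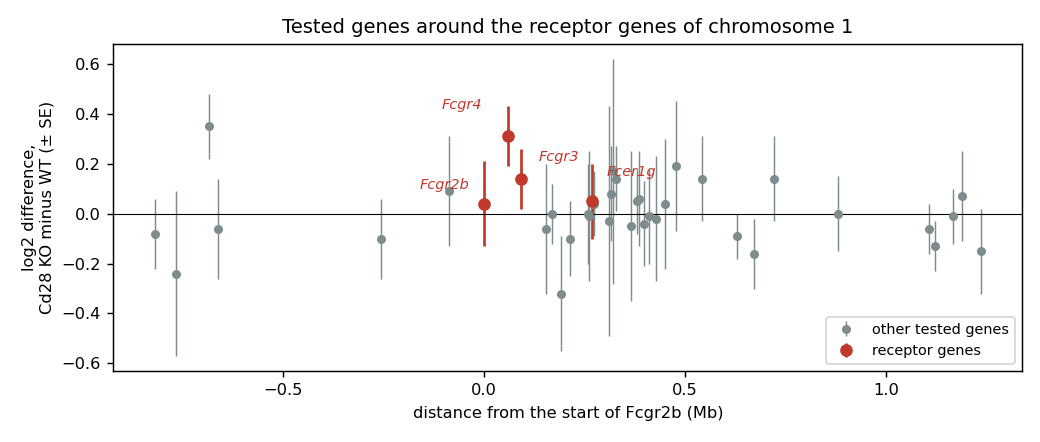
Log2 difference of Cd28 KO minus WT (vertical axis, ± SE from limma) against the distance in Mb from the start of Fcgr2b (horizontal axis), for the receptor genes (red) and the 35 other tested genes within 1000000 bases of them (grey). Fcgr4, at 0.31, lies among neighbours whose median is -0.01.

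Over the 6 libraries, which share the split between replicate 3 and the rest, Pearson's r of log2(FPKM + 1) was 0.72 between Fcgr1 and Fcgr3, 0.73 between Fcgr1 and Fcer1g and 0.06 between Fcgr3 and Fcer1g. Fcgr2b ran against Fcgr3 (r = -0.60) and Fcgr1 (r = -0.57), and the replicate 3 libraries hold its highest values. Among 5372 tested genes with a range of at least 1.5-fold, the closest to Fcgr4 over the 6 libraries were Mrpl57 (r = 0.987), a mitochondrial ribosomal protein gene, and Zfp689 (r = 0.983). The closest to Fcgr2b were Tppp3 (r = 0.999) and Inafm1 (0.992), to Fcgr1 Itgb1bp1 (0.986) and Tango2 (0.985), to Fcgr3 4933434E20Rik (0.980) and Trim23 (0.977), and to Fcer1g Tmem254b (0.989) and Slc25a26 (0.987). These are the highest of 5372 values each and describe only these 6 libraries.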

How the data were processed

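The authors deposited FPKM per gene, 1 file per library, in which genes at 0 are not listed. Bowtie, RSEM and the build GRCm38 are named in the submitters' processing notes, with no version or further step. A gene missing from a file was counted as 0. Of 14574 Entrez identifiers 14551 matched RefSeq for GRCm38, which gave symbols and coordinates, and coding sequences came from GENCODE M21. Limma 3.58.1 in R 4.3.3 (empirical Bayes with trend) was fitted to log2(FPKM + 1) for the 10172 genes averaging 1 FPKM or more over the libraries, with Benjamini-Hochberg adjustment over all of them and a threshold of 0.05, two-sided. Log2 differences on this scale understate the change of low genes, and no count test was possible without reads. The fits were tested on simulated data. No pair of libraries shared more than 0.46% of its values of at least 1 FPKM.

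Deviations from the group means correlated at 0.752, 0.505 and 0.783 between libraries of equal replicate number. All were above 0.1, the limit set for treating the numbers as pairs, from the data and not from a label. Replicate 3 lay apart in both genotypes, and replicates 1 and 2 passed this limit in either matching, so it cannot decide their pairing. The pairing of replicate 3 is clear, while replicates 1 and 2 also correlated across numbers (0.535 and 0.663).

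The genes, lists and tests were chosen with earlier results of these data known. Named genes are the 5 members, Cd28, up to 2 genes of smallest p per list among those without overlap (no list had a called gene), the most abundant gene of each list, the nearest tested neighbours, the 2 genes of closest pattern, and per marker list the highest gene and those at 0; Syk, Inpp5d, Fcgrt and Adgre1 were added for their roles, and Mertk and Plac8 after their values were seen. Some results that this rule covers are not reported here. Sequences were read with Biopython 1.88, tables with pandas 2.3.3 (Python 3.11.15, NumPy 2.4.6), the permutation test used SciPy 1.17.1 and plots Matplotlib 3.10.9.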

Additional observations from a re-analysis of the deposited data

How the results depend on the processing

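Fcgr4 and Fcgr1 stayed above 0 in all 16 alternatives (log2 0.24 to 0.38 and 0.04 to 0.16), as did Fcgr3 (0.04 to 0.28). Past the threshold were Fcgr3 (0.28) and Fcgr4 (0.29) under array weights, and no member in any other alternative. Fcgr2b turned negative on the TPM scale (-0.02), with array weights (-0.02) and in replicates 1 and 2 only (-0.03), and ran from -0.12 to 0.13 when single libraries were left out, where dropping replicate 3 of Cd28 KO (-0.12) or replicate 1 of WT (-0.02) made it negative. Fcer1g turned negative on the TPM scale (-0.01), with quantile normalization (-0.03), with array weights (-0.02) and in replicates 1 and 2 only (-0.12), and ran from -0.08, without WT replicate 3, to 0.14. The median over all tested genes was itself -0.06 on the TPM scale and -0.01 with quantile normalization, against 0.00 in FPKM. It was 0.01 with array weights and 0.03 in replicates 1 and 2 only. The cause of these changes of sign was not tested.

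Genes called over the whole table numbered 14 higher and 4 lower with the replicate block, 20 and 8 with a term for replicate 3, 604 and 324 with array weights, and 40 and 31 in replicates 1 and 2 only, and 3 were lower without the filter. Of the 7 lists, array weights called 1 gene of the other ITAM adaptors, 2 of proximal ITAM signalling, 1 of ITIM signalling and 3 of the phagocytic cup. With the replicate block, the difference in the activating ratio stays 0.10 by construction and the block changed no other call described here. The difference for Fcgr2b plus Fcgr3 was 42.6 FPKM, and 14.7 to 67.5 with single libraries left out. The Cd28 difference was -14.2 FPKM, and -8.56 without WT replicate 3; its log2 difference passed the threshold with array weights (-0.49). Without read numbers, the part of the spread that comes from depth is unknown.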

Other observations

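Fcrl1, an Fc receptor-like gene best known from B cells and named after its values were seen, ranged from 9.38 to 12.1 FPKM over the knockout libraries, against 8.96 to 10.2 in WT. Of the B cell markers, Ms4a1 did not exceed 0.05 FPKM in any library, and Cd79b, the highest, ran from 0.44 to 1.02. The part of B cells in the Fcrl1 level was not tested. Clec4d, a C-type lectin that pairs with the Fcer1g chain, also named after its values were seen, averaged 172 ± 22.4 FPKM against 141 ± 14.9 in WT (SD, n = 3), with overlap between the groups (limma adjusted p = 0.9995).

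The Fcer1g-like pattern of Tmem254b rests on values from 0.04 to 26.8 FPKM, and this gene belongs to a family of near-identical copies, so its own level is uncertain.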
